A study of Mus musculus with 9 samples.

Results

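Synaptic adhesion molecules and contactins are cell surface proteins through which axons, dendrites and synaptic terminals recognise each other. Neurexins sit mainly on presynaptic membranes and bind postsynaptic neuroligins and LRRTM proteins across the cleft. SLITRK and LRFN proteins bind presynaptic receptor phosphatases of the LAR type, FLRT proteins bind latrophilins, teneurins and UNC5 receptors, and contactins are lipid-anchored immunoglobulin proteins that work with CNTNAP proteins. In the newborn cortex, where most synapses have yet to form, the same molecules also take part in axon growth and in the placement of neurons. The genes described here are those whose symbols belong to the Nrxn, Nlgn, Lrrtm, Slitrk, Cntn, Cntnap, Flrt or Lrfn families, together with Ntng1 and Mdga2. They are 39 of the 24624 genes in the expression table. They were picked out by symbol, but with earlier results of these data known. All 39 had a mean of at least 10 normalized counts over the libraries and were tested.

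Their RNA was measured by poly(A) RNA-seq of the cerebral cortex of mice at postnatal day 0 (P0), 1 mouse per library. The 3 Fezf2+/+ mice were wild type. The 4 Fezf2-/- mice lack Fezf2, a zinc finger transcription factor of deep layer projection neurons, and their null allele carries a PLAP (placental alkaline phosphatase) knockin under the Fezf2 promoter. The 2 Fezf2-/-; Fezf2-EnR mice have the same null alleles plus a BAC transgene in which the engrailed repressor domain (EnR), fused to the DNA-binding domain of FEZF2, is read from the Fezf2 start codon. They are called Fezf2-EnR cortices in what follows, and they ask how far a protein limited to repression takes the place of FEZF2. The mice came from 3 litters. Litter m1 held 2 Fezf2+/+ and 2 Fezf2-/- mice, litter m2 held 1 Fezf2+/+ and 1 Fezf2-EnR mouse, and litter m3 held 2 Fezf2-/- mice and 1 Fezf2-EnR mouse, so that no litter held all genotypes.

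Each value is a count of reads for a gene divided by the size factor of its library, called a normalized count below, and these summed to between 20097781 and 21058156 per library. Fezf2 itself was at 979 to 1232 normalized counts in Fezf2+/+, 193 to 242 in Fezf2-/-, and 907 and 1001 in Fezf2-EnR, whose transgene also carries Fezf2 sequence. Defining markers of cortical glutamatergic neurons such as Neurod6 and Tbr1 were high in every library, and none of the 8 genes on that list was at 0. Emx1 and Neurod2 of that list were lower in every Fezf2-/- than in every Fezf2+/+ library, and Slc17a6 and Slc17a7 were higher. Of the 8, 1 was called higher in Fezf2-/- than in Fezf2+/+ and 1 lower. The summed level of 8 GABAergic interneuron markers was 6661 to 6995 in Fezf2+/+ and 8540 to 9941 in Fezf2-/-, with 8025 in Fezf2-EnR bc208 and 6625 in bc209. Striatal markers summed to 2956 in Fezf2-/- bc204 and 2212 in Fezf2-EnR bc208, against 927 to 1681 in the other libraries. Fezf2+/+ bc201 and both Fezf2-EnR libraries held 7895 to 12203 normalized counts of Xist and 0 to 4.22 of each of 4 Y-linked genes. All Fezf2-/- libraries held at most 3.27 of Xist and all 4 Y-linked RNAs. Sex and the transgene thus cannot be told apart in Fezf2-EnR against Fezf2-/-, for genes on any chromosome. Fezf2+/+ bc202 and bc203 held 58.9 and 8.43 of Xist and all 4 Y-linked RNAs. Sex was therefore also unbalanced in the comparisons with Fezf2+/+. In bulk tissue, fewer cells of a type and less RNA per cell cannot be told apart.

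In wild type cortex the genes spanned a wide range of levels. On a scale that allows genes to be compared, normalized counts per kb of annotated exon, 24 of the 39 lay above the median tested gene, which was at 98.2. Cntn2 was the highest, at 1137 ± 107 per kb (SD, n = 3). CNTN2, also called TAG-1, is a contactin of growing axons, including those that leave the cortex. Nlgn2, the neuroligin of inhibitory synapses, followed at 1077 ± 32.5 per kb, and the libraries of these 2 genes overlapped. Below them, Nrxn2 at 766 ± 9.05 per kb and Cntn1 at 553 ± 49.5 per kb were each separated from their neighbours in the order, with no overlap between libraries. Nrxn3 was at 106 ± 8.14 per kb, far below Nrxn2. Most neighbours could not be ordered. Of the 38 pairs of genes next to each other in the order, 28 overlapped between libraries and 10 did not.

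Families differed in how evenly their members were expressed. The 5 Lrfn genes lay close together, between 275 and 454 per kb. LRFN1, LRFN2 and LRFN4 carry a tail that binds the scaffold PSD-95, which LRFN3 and LRFN5 lack, and Lrfn1 at 454 ± 23.8 per kb was the highest of the family. The 4 Lrrtm genes, which encode postsynaptic neurexin ligands of excitatory synapses, ran from 69.9 ± 5.86 per kb for Lrrtm4 to 414 ± 44.6 per kb for Lrrtm1. Among the Slitrk genes, Slitrk5 led at 365 ± 23.3 per kb and Slitrk6 was at 3.58 ± 0.770 per kb. The Cntnap genes were low, with a family median of 47.5 per kb. Cntnap2, whose protein clusters potassium channels in axons, was at 114 ± 11.1 per kb, and Cntnap1, the paranodal partner of contactin 1 in myelinated axons, was the lowest of all at 2.62 ± 0.384 per kb. Flrt2 led its family at 308 ± 48.0 per kb. Ntng1, a lipid-anchored protein that binds the netrin-G ligand LRRC4C, was at 22.7 ± 1.71 per kb. Mdga2, which binds neuroligins and blocks their contact with neurexins, was at 96.0 ± 5.92 per kb.

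**Figure D1:**
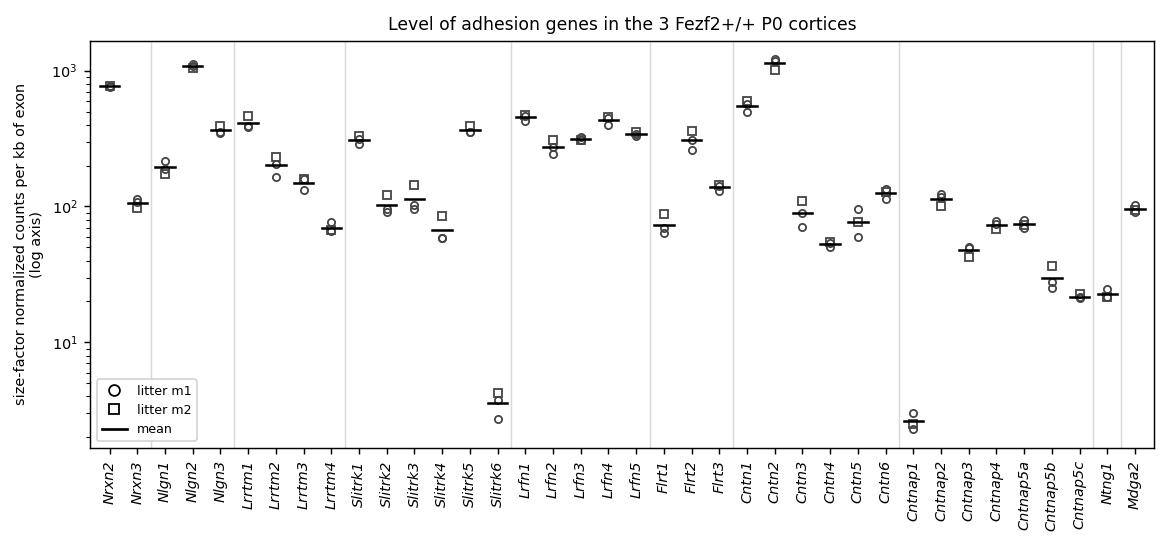
Normalized counts per kb of exon, on a log axis, for 38 of the 39 genes in the 3 Fezf2+/+ libraries, with genes grouped by family. Open symbols are libraries by litter and bars are means. Cntn2 and Nlgn2 lie above 1000 per kb, and Slitrk6 and Cntnap1 lie below 5 per kb.

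The first comparison asks what the loss of Fezf2 does to these genes. Lrrtm4 was the 1 gene that passed the test, and it rose 1.51-fold in Fezf2-/- cortices. In all, 29 of the 39 genes had a higher mean log2 value in Fezf2-/- than in Fezf2+/+ and 10 had a lower one, and the differences were small, from -0.33 to 0.76 on the log2 scale. Their median was 0.14, beside 0.00 over the 16197 genes tested. The test was limma on log2(normalized count + 1), with a call at a Benjamini-Hochberg adjusted p under 0.05 over all tested genes. In this comparison 0.512% of all genes were called higher and 0.346% lower, and of the adhesion genes 1 of 39 was called higher and none lower. At an unadjusted p under 0.05, 11 adhesion genes (28.2%) were higher and 2 (5.13%) lower, against 6.61% and 4.21% of all genes.

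LRRTM4 is a postsynaptic neurexin ligand that also binds heparan sulphate proteoglycans. The gene lies on chromosome 6 of mm10, from 80018877 to 80810143 on the plus strand. Lrrtm4 was at 471, 408 and 410.0 normalized counts in Fezf2+/+ bc201, bc202 and bc203. It was at 697, 605, 570.3 and 739 in Fezf2-/- bc204, bc205, bc206 and bc207. Every Fezf2-/- library was thus above every Fezf2+/+ library, with the m3 libraries bc204 and bc207 the highest. The difference was 0.60 ± 0.11 on the log2 scale (SE, limma adjusted p = 0.0280). Across the 2 Fezf2-/- and 2 Fezf2+/+ libraries of litter m1 alone it was 0.42, with an adjusted p of 0.0908, and with litter as a block 0.46, with an adjusted p of 0.0460. The call was lost when 1 library was left out for 6 of the 9 libraries, with adjusted p of 0.0574 without bc201, 0.170 without bc202, 0.109 without bc203, 0.0855 without bc204, 0.0569 without bc205 and 0.0702 without bc207, while the difference stayed between 0.54 and 0.67. Exons of Gm4409 on the opposite strand cover 25.1% of the annotated exon length of Lrrtm4, and the use of strand in counting is not given in the sources used here, so reads from the pair cannot be told apart. Exons of other annotated genes, on either strand, overlap those of 12 of the 39 genes. Sums of markers of other cells were also higher in Fezf2-/-. Besides those of interneurons, the 6 oligodendrocyte precursor genes summed to 5570 to 5919 normalized counts in Fezf2+/+ and 6523 to 6948 in Fezf2-/-. The 6 genes of the thalamic list summed to 973 to 1005 and 1145 to 1339. Most of that sum was Rora and Prox1, each of which overlapped between these genotypes. In Fezf2-EnR bc208 and bc209 the interneuron sums were 8025 and 6625, the precursor sums 6468 and 6208, and the thalamic list sums 1066 and 1161. The precursor and thalamic list sums of Fezf2-EnR thus stayed above every Fezf2+/+ library. All 8 radial glia and astrocyte genes also had differences above 0. The part of these cells in the value of Lrrtm4 was not tested.

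The 250 bases that precede the annotated starts of Lrrtm4 and of Flrt2, the other gene that passed a test, are shown because they are the reference sequence next to the genes whose RNA changed. They are RefSeq sequences of GRCm38.p6, both on the plus strand, written 5′ to 3′ with CG dinucleotides in capitals, at chr6:80018627-80018876 for Lrrtm4 and chr12:95691976-95692225 for Flrt2.
Lrrtm4: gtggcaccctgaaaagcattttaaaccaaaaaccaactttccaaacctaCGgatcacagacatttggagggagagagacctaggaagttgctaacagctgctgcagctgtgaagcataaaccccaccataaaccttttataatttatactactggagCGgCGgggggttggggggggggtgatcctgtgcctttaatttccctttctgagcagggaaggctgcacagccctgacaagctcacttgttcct
Flrt2: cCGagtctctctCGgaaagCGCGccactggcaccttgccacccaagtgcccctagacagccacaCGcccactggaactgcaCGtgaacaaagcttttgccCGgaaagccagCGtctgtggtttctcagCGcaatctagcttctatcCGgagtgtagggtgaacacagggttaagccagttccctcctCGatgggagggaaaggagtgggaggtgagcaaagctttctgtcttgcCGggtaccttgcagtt

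The Lrrtm4 window held 3 CG dinucleotides and was 49.2% G or C, and the Flrt2 window held 12 and was 57.2% G or C. Over 32851 RefSeq windows of the same length the median was 6, and 92.1% held at least 1. The letters TATAA, searched on both strands, occur in the Lrrtm4 window and not in the Flrt2 window, and 22.8% of all windows hold them. RefSeq gives 2 starts for Lrrtm4, of which 1 is shown. Windows were found for 27 of the 39 genes, with 37 windows in all and a median of 9 CG dinucleotides. These are descriptions of the letters and not of binding sites.

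Beyond Lrrtm4, 8 genes had Fezf2-/- libraries that did not overlap the Fezf2+/+ libraries but did not pass the adjusted test. With Lrrtm4, 7 of the 39 (17.9%) lay wholly above, where 6.53% of all genes did, and 2 (5.13%) wholly below, where 6.46% of all genes did. The 7 were Nrxn3, Lrrtm4, Flrt3, Cntn1, Cntn4, Cntnap3 and Cntnap4, and the 2 were Flrt2 and Lrfn5. An exact two-sided permutation test of the 4 against the 3 libraries, with 35 arrangements and no adjustment for the 39 genes, gave the smallest value it allows, p = 0.029, for 6 of the 39. A gene reaches that value only if its libraries do not overlap, so it restates the separation of these 6 and adds no support. The arrangements also exchange mice between litters, although litter m3 held no Fezf2+/+ mouse.

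**Figure D2:**
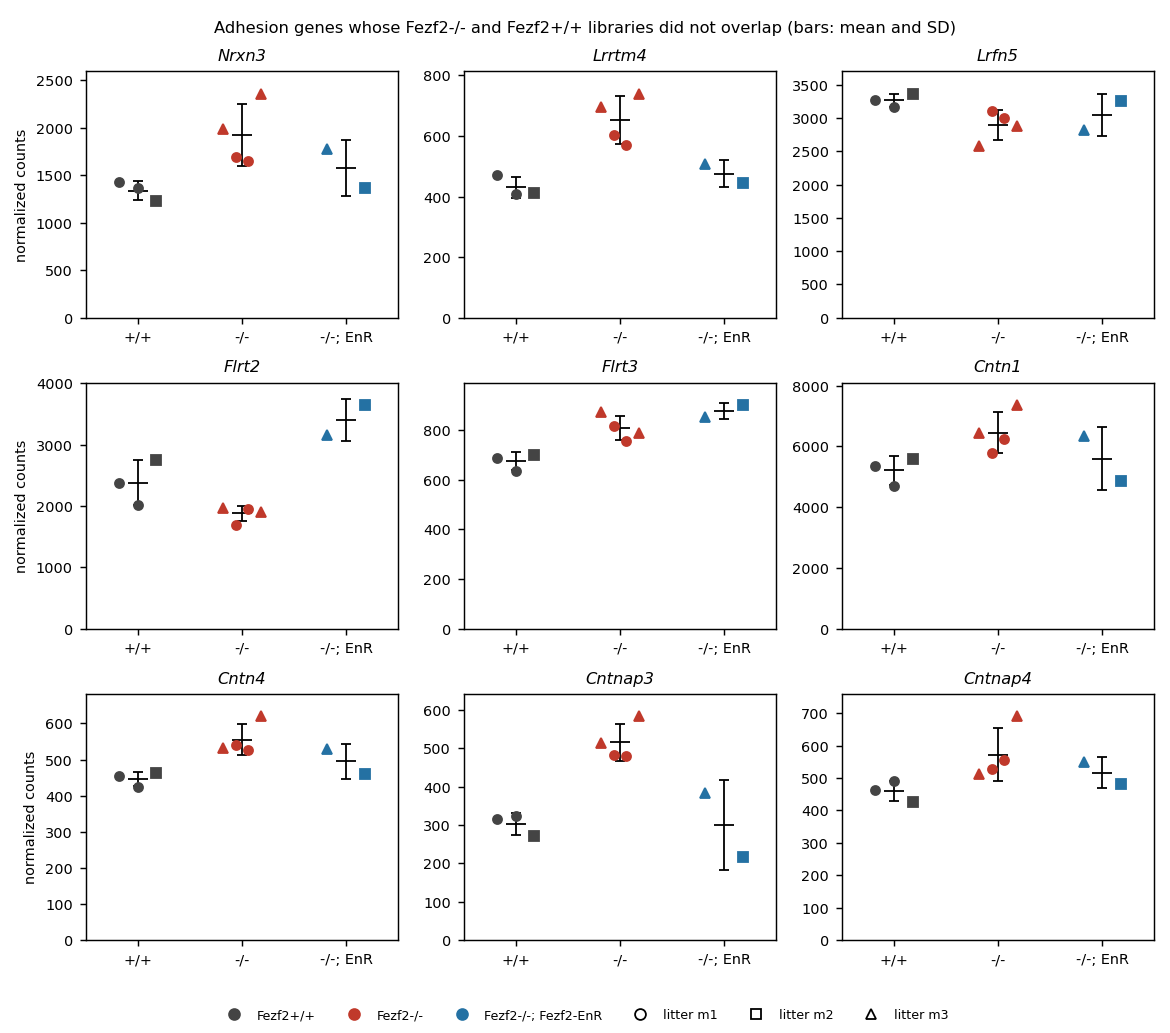
Normalized counts, on axes that start at 0, of the 9 genes whose Fezf2-/- libraries lay wholly above or below the Fezf2+/+ libraries, with 1 point per library, shapes for litters, and bars for the mean and SD of each genotype. For Lrrtm4 the Fezf2-/- points lie between 570.3 and 739 and the others between 408 and 508, and for Flrt2 the Fezf2-EnR points at 3161 and 3645 lie above all others.

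Cntnap3, a CNTNAP gene of forebrain neurons, had the largest difference of the 39. It was at 316, 324 and 271 normalized counts in Fezf2+/+ and at 514, 483, 481 and 583 in Fezf2-/-. The Fezf2-/- libraries were all above 480, and none of the Fezf2+/+ libraries exceeded 324. The difference was 0.76 ± 0.17 on the log2 scale, a ratio of 1.69, and limma's adjusted p was 0.0792 in the fit of all 9 libraries. It was called without Fezf2-EnR bc208 (adjusted p = 0.00673) and without bc209 (adjusted p = 0.00658), but not when any of the 7 other libraries was left out, with adjusted p of 0.111 to 0.229. With litter as a block the difference was 0.50 and the adjusted p 0.0526. edgeR called it on reads of 7 libraries (adjusted p = 0.0220) and not on those of all 9 (adjusted p = 0.0751). The 7 libraries with recovered reads leave out Fezf2-/- bc204 and Fezf2-EnR bc208. In limma the adjusted p was 0.00629 among the 7 Fezf2+/+ and Fezf2-/- libraries alone. It was 0.0128 in litter m1 alone, where the difference was 0.59. The Fezf2-EnR libraries of Cntnap3 lay far apart, at 382 and 217, and they enter the estimate of the spread in the fit of all 9.

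Nrxn3, a neurexin of lower level per kb than Nrxn2 in these cortices, was at 1428, 1362 and 1227 normalized counts in Fezf2+/+. In Fezf2-/- it was at 1983, 1694, 1648 and 2358, again highest in the m3 libraries. The difference was 0.51 ± 0.13 on the log2 scale (limma adjusted p = 0.147), and 0.26 within litter m1. Of 21 alternatives, DESeq2 on reads recovered in 7 libraries was the 1 that called it (adjusted p = 0.00617), whereas edgeR gave an adjusted p of 0.186 on the same reads, and with litter as a block the difference was 0.30 (adjusted p = 0.172). Nrxn2 overlapped between the genotypes, at 10446, 10602 and 10693 in Fezf2+/+ and 10509, 10729.6, 9702 and 11608 in Fezf2-/-, with a difference of 0.01 ± 0.08.

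Cntnap4, whose protein is known from the terminals of interneurons, was at 463, 489 and 427 normalized counts in Fezf2+/+ and at 511, 528, 556 and 690.2 in Fezf2-/-. The difference was 0.31 ± 0.11 on the log2 scale (limma adjusted p = 0.331), and the highest library, bc207, stood well above the other Fezf2-/- libraries. Cntnap2 was at 1201, 1256 and 1037 in Fezf2+/+ and at 1690.3, 1402, 1187 and 1825 in Fezf2-/-, where bc206 fell within the Fezf2+/+ range. Its difference was 0.37 ± 0.14 (adjusted p = 0.340). For Nrxn3, Cntnap3 and Cntnap4 too, the sums of interneuron and oligodendrocyte precursor markers and of the thalamic list were higher in Fezf2-/-. The part of those cells in these values was not tested.

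Contactins went both ways without a call. Cntn1 was at 5356, 4691 and 5592 normalized counts in Fezf2+/+ and at 6432, 5784, 6239 and 7359 in Fezf2-/-, a difference of 0.31 ± 0.11 on the log2 scale (limma adjusted p = 0.311). Cntn4, a contactin of sensory and visual axons, was at 455, 425 and 462 in Fezf2+/+ and at 531, 540.5, 528 and 619.6 in Fezf2-/-, a difference of 0.31 ± 0.09 (adjusted p = 0.185). For both genes the genotypes were close but did not overlap. Cntn2 pointed the other way, at 11020.2, 11282 and 9436 in Fezf2+/+ and 7668, 9045, 10331 and 7990.4 in Fezf2-/-, where bc206 lay within the Fezf2+/+ range and the difference was -0.28 ± 0.13 (adjusted p = 0.474).

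Among the FLRT genes, Flrt2 and Flrt3 had differences of opposite sign. FLRT2 and FLRT3 guide migrating neurons and axons through UNC5 receptors and through other FLRT proteins. Flrt3 was at 689, 635 and 701 normalized counts in Fezf2+/+ and at 871, 816, 755 and 787 in Fezf2-/-, a difference of 0.26 ± 0.07 on the log2 scale (limma adjusted p = 0.186). Flrt2 was at 2374, 2014 and 2755 in Fezf2+/+ and at 1968, 1693, 1948 and 1907 in Fezf2-/-, a difference of -0.33 ± 0.10 (adjusted p = 0.252). Here too DESeq2 on reads recovered in 7 libraries was the 1 alternative of 21 that called it (adjusted p = 0.0474), and edgeR on the same reads gave an adjusted p of 0.274. The nearest libraries of Flrt2, 2014 and 1968, differed by little. Lrfn5, whose protein binds receptor phosphatases from the postsynaptic side, was at 3267, 3166 and 3366 in Fezf2+/+ and at 2586, 3108, 2995 and 2882 in Fezf2-/-, a difference of -0.18 ± 0.07 (adjusted p = 0.422).

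In all the other genes the Fezf2-/- and Fezf2+/+ libraries overlapped. The 3 neuroligin genes differed by 0.02 to 0.16 on the log2 scale, and Nlgn2, at 6205, 6428 and 6055 normalized counts in Fezf2+/+ and 6327, 6575, 6520 and 6832 in Fezf2-/-, had a 95% interval of -0.04 to 0.19. Exons of Gm21986 on the same strand cover 41.2% of the exon length of Nlgn3, so the values of Nlgn3 are uncertain. Nrxn2 and Lrfn1 had 95% intervals of -0.17 to 0.17 and -0.18 to 0.22. The fit held no term for litter or sex, so these intervals do not bound a change from genotype alone. All 6 Slitrk genes had differences above 0, from 0.01 for Slitrk2 to 0.50 for Slitrk3, with the lowest adjusted p at 0.409. Slitrk5, the highest of them per kb, was at 1851, 1845 and 2060.4 normalized counts in Fezf2+/+ and 1985, 2019, 2056 and 2209 in Fezf2-/-, which overlapped. Lrrtm1 was at 1168, 1189.9 and 1412 in Fezf2+/+ and 1415, 1159, 1491 and 1478 in Fezf2-/-, which also overlapped. Ntng1 differed by 0.31 ± 0.23, with Fezf2+/+ libraries at 179, 203 and 178 and Fezf2-/- libraries spread widely, at 207, 268, 165 and 313. Mdga2 differed by -0.02 ± 0.08.

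**Figure D3:**
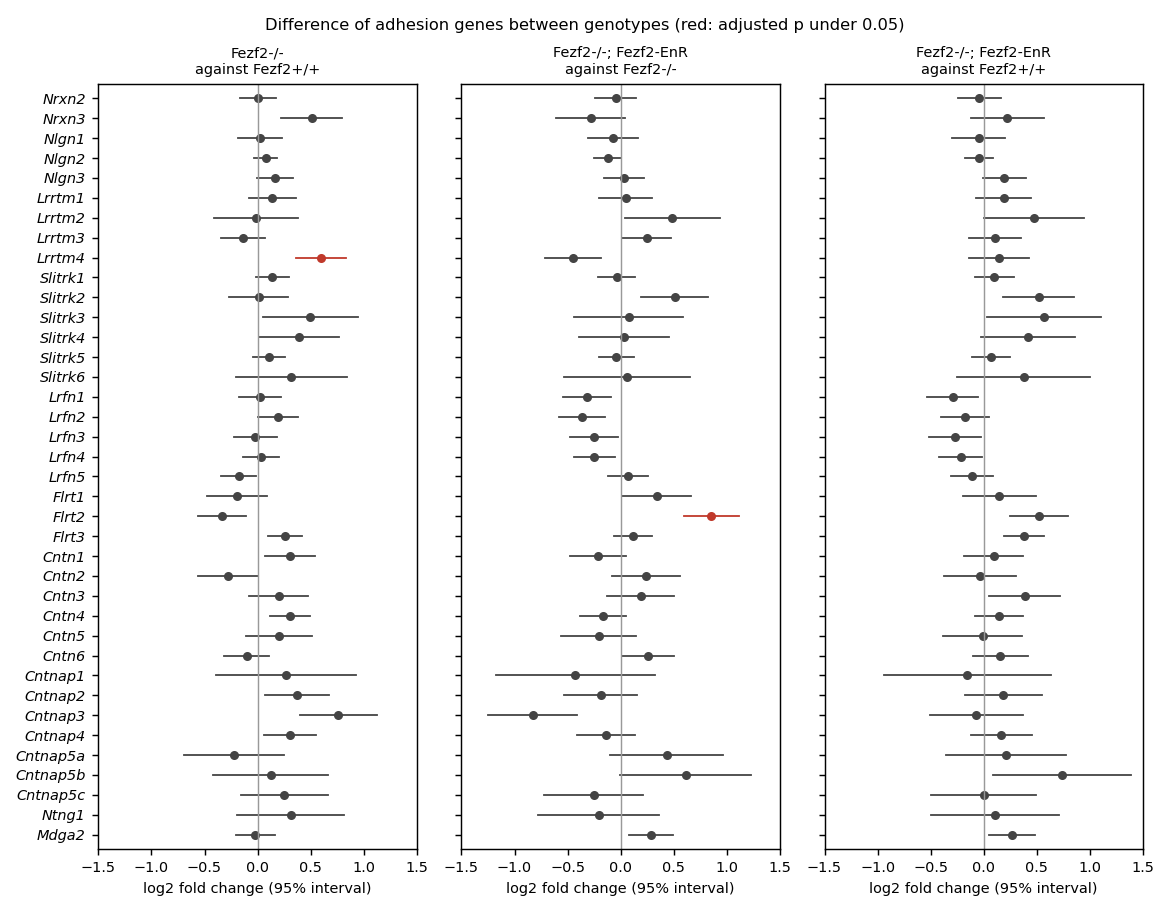
Log2 fold change with its 95% interval (limma) for 38 of the 39 genes in the 3 comparisons, in family order, with red for an adjusted p under 0.05. Lrrtm4 is the 1 red gene in Fezf2-/- against Fezf2+/+ and Flrt2 the 1 red gene in Fezf2-EnR against Fezf2-/-, and no gene is red in Fezf2-EnR against Fezf2+/+.

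The second comparison asks what the repressor transgene adds to cortices that lack Fezf2. Flrt2 was the 1 gene that passed the test, and it rose 1.81-fold in Fezf2-EnR over Fezf2-/- cortices. Among all genes 0.333% were called higher and 0.432% lower, and of the adhesion genes 1 of 39 was called higher and none lower. The 39 differences ran from -0.83 to 0.86 on the log2 scale with a median of -0.04, 18 above 0 and 21 below, beside a median of 0.00 over all genes. At an unadjusted p under 0.05, 7 adhesion genes (17.9%) were higher and 6 (15.4%) lower, against 7.87% and 9.06% of all genes. This comparison shares its Fezf2-/- libraries with the first, so the signs of the 2 are not independent. With 2 Fezf2-EnR libraries, no permutation test was made.

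Flrt2 lies on chromosome 12 of mm10, from 95692226 to 95785215 on the plus strand, and no other annotated gene overlaps its exons. It was at 3161 and 3645 normalized counts in Fezf2-EnR bc208 and bc209, above the highest Fezf2-/- library at 1968 and the highest Fezf2+/+ library at 2755. The difference from Fezf2-/- was 0.86 ± 0.12 on the log2 scale (SE, limma adjusted p = 0.00824). It was 0.71 within litter m3, from 1 Fezf2-EnR and 2 Fezf2-/- libraries, and 0.69 with litter as a block (adjusted p = 0.0111). Without bc209 it was 0.75 and the adjusted p was 0.138. It stayed called when any other library was left out. Against Fezf2+/+ the difference was 0.52 ± 0.12 (adjusted p = 0.115), and 0.63 with an adjusted p of 0.0390 without Fezf2+/+ bc203. Flrt2 was thus lowest in Fezf2-/-, intermediate in Fezf2+/+ and highest in Fezf2-EnR, with no overlap between any of the genotypes, and only the step from Fezf2-/- to Fezf2-EnR passed the test.

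Lrrtm4 was at 508 and 444 normalized counts in Fezf2-EnR, below all 4 Fezf2-/- libraries, with bc208 just above and bc209 within the Fezf2+/+ range. The difference from Fezf2-/- was -0.45 ± 0.12 on the log2 scale (limma adjusted p = 0.130), and the difference from Fezf2+/+ was 0.15 ± 0.13 (adjusted p = 0.557). Cntnap3, at 382 and 217, was below every Fezf2-/- library by -0.83 ± 0.19 (adjusted p = 0.0855). With litter as a block this difference was -0.65 with an adjusted p of 0.0402, so the block made it a call. Without bc208 it was -1.24 with an adjusted p of 0.00276, and without bc209 it was -0.43, so its size depended on which Fezf2-EnR library was kept. The interneuron marker sum of bc209, 6625, was also the lowest of the 9 libraries, and its part in the value of Cntnap3 was not tested. Nrxn3 was at 1781 and 1368 in Fezf2-EnR, where bc208 lay within the Fezf2-/- range, and its difference was -0.28 ± 0.15 (adjusted p = 0.351).

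Fezf2-EnR and Fezf2-/- libraries did not overlap for 14 genes. The 8 that were higher in Fezf2-EnR (20.5%, against 12% of all genes) were Cntn3, Cntnap5b, Flrt1, Flrt2, Lrrtm2, Lrrtm3, Mdga2 and Slitrk2, and the 6 that were lower (15.4%, against 12.6%) were Cntnap3, Lrfn1, Lrfn2, Lrfn4, Lrrtm4 and Nlgn2. Apart from Flrt2 none of these was called. Slitrk2, which lies on the X chromosome, was at 1051 and 1329 normalized counts in Fezf2-EnR and at 851, 739.9, 779.8 and 971 in Fezf2-/-, a difference of 0.51 ± 0.14 on the log2 scale (limma adjusted p = 0.143). Nlgn3 and Slitrk4, the other X-linked genes among the 39, differed by 0.03 in each case. Mdga2 was at 2094 and 2133 in Fezf2-EnR, at 1643, 1572, 1736 and 2002 in Fezf2-/- and at 1882, 1677 and 1719 in Fezf2+/+, and the difference from Fezf2-/- was 0.29 ± 0.09 (adjusted p = 0.188).

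Other genes described above had Fezf2-EnR libraries that mostly overlapped the Fezf2-/- range. Cntn1 was at 6336 and 4860.1 normalized counts in bc208 and bc209, Cntn2 at 8715 and 12123, and Cntn4 at 529.7 and 460.0. In these contactin genes bc208 lay within the Fezf2-/- range and bc209 outside it. Cntnap2 was at 1413 and 1235, Cntnap4 at 551 and 482, and Lrfn5 at 2819 and 3265. Nrxn2 was at 11348 and 9297, Nlgn2 at 6201 and 5863, Lrrtm1 at 1461 and 1393, Slitrk5 at 2123 and 1902, and Ntng1 at 264 and 152. The adjusted p of these 11 genes against Fezf2-/- in limma ran from 0.308 for Nlgn2 to 0.858 for Lrrtm1.

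The Lrfn genes had the lowest family median in this comparison, -0.25 on the log2 scale. Lrfn1 was at 1661 and 1265 normalized counts in Fezf2-EnR, against 1828, 1825, 1670.1 and 1889.6 in Fezf2-/- and 1671, 1815 and 1846 in Fezf2+/+. Its difference from Fezf2-/- was -0.31 ± 0.10 on the log2 scale (limma adjusted p = 0.187), and those of Lrfn2, Lrfn3 and Lrfn4 were -0.36, -0.25 and -0.25. Library bc209 was the lowest of the 9 for all 4 genes, at 1265 for Lrfn1, 720.1 for Lrfn2, 663 for Lrfn3 and 1145 for Lrfn4. For Lrfn5 the difference was 0.07 ± 0.09 and bc209, at 3265, lay within the Fezf2+/+ range. Without bc208, which leaves bc209 as the lone Fezf2-EnR library and assumes that it varies as the other groups do, 7 of the 39 genes were called, namely Lrfn1, Lrfn2, Lrfn3, Lrfn4, Flrt2, Cntnap3 and Slitrk2, and without bc209 none was. Over all genes the count was 1088 without bc208 and 21 without bc209, against 124 with both. Library bc208 is of litter m3, which held Fezf2-/- mice, and bc209 is of litter m2, which held none.

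The third comparison asks where the Fezf2-EnR cortices stand against wild type. No adhesion gene was called in limma or in edgeR on the reads of all 9 libraries, whereas 0.0926% of all genes were called higher and 0.0247% lower in limma. At an unadjusted p under 0.05, 8 adhesion genes (20.5%) were higher and 3 (7.69%) lower, against 10.5% and 8.72% of all genes. The median difference was 0.14 on the log2 scale, 26 above 0 and 13 below, with a range of -0.29 to 0.74. Libraries did not overlap for 9 genes that were higher (23.1%, against 17.3% of all genes), which were Cntn3, Cntnap5b, Flrt2, Flrt3, Lrrtm2, Mdga2, Nlgn3, Slitrk2 and Slitrk6, and for 2 that were lower (5.13%, against 17.3%), Lrfn1 and Lrfn3. Flrt3 was at 852 and 900.3 normalized counts in Fezf2-EnR, a difference of 0.38 ± 0.09 from Fezf2+/+ (limma adjusted p = 0.113) and of 0.12 ± 0.08 from Fezf2-/- (adjusted p = 0.472). Cntnap5b had the largest difference, 0.74 ± 0.29 (adjusted p = 0.210), at 284 and 231 in Fezf2-EnR against 144, 132 and 189.7 in Fezf2+/+. Slitrk3 followed at 0.57 ± 0.24 (adjusted p = 0.237), with bc209 at 691 inside the Fezf2+/+ range. Without bc208, Lrfn1 was called lower at -0.49 (adjusted p = 0.0341).

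**Figure D4:**
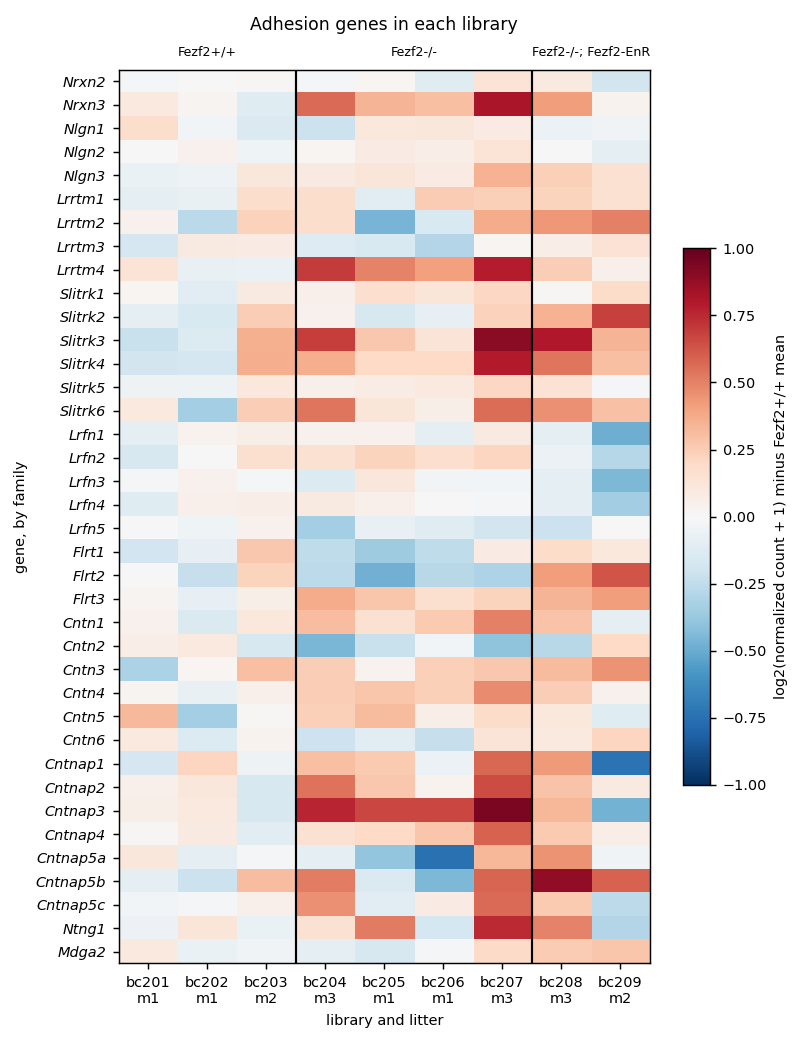
Values of 38 of the 39 genes in each of the 9 libraries, as log2(normalized count + 1) minus the Fezf2+/+ mean, from -1 (blue) to 1 (red), with genes in family order and libraries by genotype and litter. Columns bc204 and bc207, both Fezf2-/- of litter m3, are redder than bc205 and bc206 for 17 genes, and column bc209 is blue for Lrfn1 to Lrfn4 and Cntnap3.

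Litters differed within a genotype for many of these genes. Within Fezf2-/-, both m3 libraries lay above both m1 libraries for 17 of the 39 genes (43.6%, against 24.4% of all genes) and below them for 4 (10.3%, against 23.5%). The 17 include Nrxn3, Lrrtm2, Lrrtm4, Cntn1, Cntnap2, Cntnap3, Slitrk2, Slitrk3, Slitrk4 and all 3 Cntnap5 genes. The widest was Cntnap5b, at 219 and 230.1 normalized counts in m3 and 138 and 112 in m1, a difference of 0.85 on the log2 scale between littermate pairs of the same genotype. Library bc207 was the highest of the 9 for 20 of the 39 genes (51.3%, against 13.0% of all genes), a library singled out after its values were seen. Library bc209 was the highest for 9 (23.1%, against 21.8%) and the lowest for 10 (25.6%, against 21.3%). Since no Fezf2+/+ mouse came from litter m3, litter and genotype cannot be told apart for the part of the Fezf2-/- mean that m3 contributes. Within litter m1, where both genotypes are present with 2 mice each, the difference was 0.59 for Cntnap3, 0.42 for Lrrtm4, 0.28 for Cntn4, 0.26 for Cntn1 and Nrxn3, 0.25 for Flrt3, 0.19 for Cntnap4, -0.08 for Lrfn5 and -0.27 for Flrt2 on the log2 scale.

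The known binding partners of these proteins were read in the same way, in 6 lists that hold 89 genes of the table, 88 of them tested. The lists were chosen with earlier results of these data known. A share of partners above that of all genes therefore describes the lists and adds no support. In Fezf2-/- against Fezf2+/+, 2 partners were called higher (2.27%, against 0.512% of all genes) and 2 lower (2.27%, against 0.346%). In Fezf2-EnR against Fezf2-/-, 3 were called higher (3.41%, against 0.333%) and 2 lower (2.27%, against 0.432%), and in Fezf2-EnR against Fezf2+/+, where 0.0926% and 0.0247% of all genes were, none was called. The called partners include secreted neurexin ligands. Nxph3 and Nxph4 encode neurexophilins, which bind the alpha neurexins. Nxph3 was at 1188, 1160.4 and 1094 normalized counts in Fezf2+/+, 184, 145, 195 and 184 in Fezf2-/-, and 991 and 1021 in Fezf2-EnR. It fell by 2.70 ± 0.10 on the log2 scale in Fezf2-/- (limma adjusted p = 3.52e-07) and rose by 2.51 ± 0.11 in Fezf2-EnR over Fezf2-/- (adjusted p = 3.32e-06), and the Fezf2-/- libraries lay far below all others. Nxph4 was at 385, 483 and 410.0 in Fezf2+/+, 126, 163, 169 and 167 in Fezf2-/-, and 327 and 367 in Fezf2-EnR. It fell by 1.45 ± 0.13 (limma adjusted p = 0.000265) and rose by 1.15 ± 0.14 (adjusted p = 0.00520). Both genes stayed called when any library was left out, except that the rise of Nxph4 was not called without bc209 (adjusted p = 0.1002). In limma on all libraries, Nrxn2 and Nrxn3 themselves differed by at most 0.51 in either comparison and neither was called. Among the alternatives, DESeq2 called Nrxn3 higher in Fezf2-/- than in Fezf2+/+, as given above.

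The remaining called partners bind neuroligins, receptor phosphatases or netrin-G ligands. Mdga1, the relative of Mdga2 that also blocks neuroligins, was at 3163, 3233 and 3190.1 normalized counts in Fezf2+/+, 3707, 4863, 4489 and 4728 in Fezf2-/-, and 3179 and 2762 in Fezf2-EnR. It rose by 0.47 ± 0.09 on the log2 scale in Fezf2-/- (limma adjusted p = 0.0434) and fell by 0.58 ± 0.10 in Fezf2-EnR against Fezf2-/- (adjusted p = 0.0336). With litter as a block neither was called (adjusted p = 0.0864 and 0.106). The rise was lost without bc201, bc202, bc203, bc205, bc206 or bc207, with adjusted p up to 0.182, and the fall without bc201, bc202, bc205, bc206, bc207 or bc209, with adjusted p up to 0.413. Gpc4, a heparan sulphate proteoglycan and the presynaptic ligand of LRRTM4, was at 297, 239.9 and 208 in Fezf2+/+, 341, 393, 426 and 404 in Fezf2-/-, and 269.8 and 288 in Fezf2-EnR. Gpc4 rose by 0.67 ± 0.13 in Fezf2-/- (adjusted p = 0.0367), so that it and Lrrtm4 were both called higher there, and its difference between Fezf2-EnR and Fezf2-/- was -0.48 ± 0.14 (adjusted p = 0.156). The rise of Gpc4 was not called without bc202, bc203, bc205, bc206 or bc207, with adjusted p up to 0.184.

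Ntng2, the relative of Ntng1, was at 1438, 1798 and 1407 normalized counts in Fezf2+/+, 1793, 2227, 1952 and 1918 in Fezf2-/-, and 1149.9 and 1036 in Fezf2-EnR. Ntng2 fell by 0.85 ± 0.11 on the log2 scale in Fezf2-EnR against Fezf2-/- (limma adjusted p = 0.00734), and without bc209 the adjusted p was 0.130. Ntrk3, the neurotrophin 3 receptor, which also binds the receptor phosphatase PTPRS, was at 3346, 3357 and 3533 in Fezf2+/+, 2355, 2609, 2749 and 2852 in Fezf2-/-, and 3491 and 5304 in Fezf2-EnR. Every Fezf2-/- library of Ntrk3 lay below every Fezf2+/+ library, a difference of -0.37 ± 0.12 that was not called (limma adjusted p = 0.277). Of 21 alternatives, 5 called it. Ntrk3 rose by 0.71 ± 0.14 in Fezf2-EnR against Fezf2-/- (adjusted p = 0.0471), and bc209 held far more of it than bc208. That call held without bc208, at 1.01, and was lost without any of the 8 other libraries, with 0.41 and an adjusted p of 0.357 without bc209, and with litter as a block (adjusted p = 0.0625). No gene was called in the lists of contactin and CNTNAP partners (14 genes), of other neural adhesion genes (21) or of the synaptic scaffolds that bind these receptors (15), in any of the 3 comparisons, and at the shares of all genes called above lists of this size would hold less than 1.

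**Figure D5:**
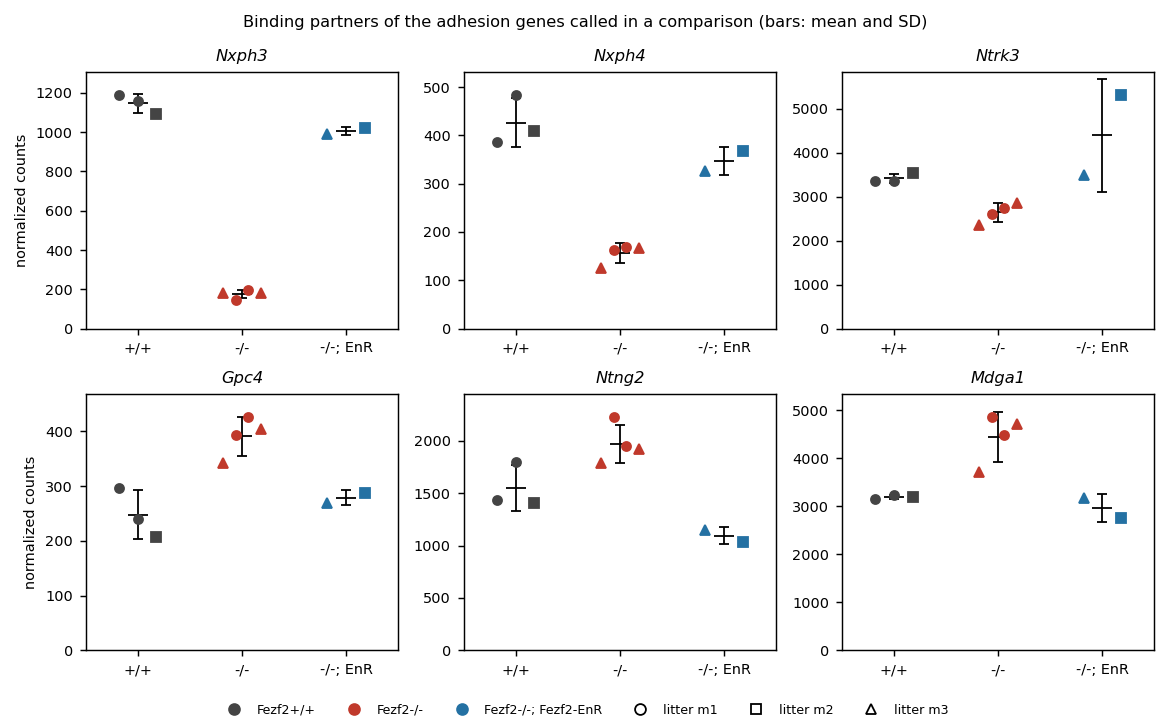
Normalized counts, on axes that start at 0, of the 6 partner genes called in at least 1 comparison, with 1 point per library, shapes for litters, and bars for the mean and SD of each genotype. Nxph3 lies at 145 to 195 in Fezf2-/- and above 990 in all other libraries, and the Fezf2-EnR points of Ntrk3 at 3491 and 5304 lie far apart.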

How the data were processed

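Poly(A) RNA-seq libraries of 9 P0 mouse cortices were examined, with genotype and litter from the labels. The authors deposited 1 table of 24624 genes, and its values are a normalized signal, read counts divided by a size factor for each library. Per the labels, the tools named are STAR, Bowtie and DESeq, with build mm10. Versions, annotation release and use of strand are not given in the sources used here. Between 50 and 1000, every library had 100.0% of its values at multiples of what 1 read is worth, within 0.1 reads. This recovered 18716575 to 25127623 reads in the 7 libraries where that worth was far enough from 1. Fezf2-/- bc204 and Fezf2-EnR bc208 were not among them. Fits on recovered reads of 7 libraries thus differ from the main fit in samples as well as in method.

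As planned for a normalized table, limma 3.58.1 (lmFit, eBayes with a trend, R 4.3.3) was fitted to log2(value + 1) of the 16197 genes whose mean reached 10, with 1 coefficient per genotype and no covariate. Fold changes are on that scale and understate the change of low genes. Alternatives were edgeR 4.0.16 and DESeq2 1.42.0 on recovered reads, pseudocounts of 0.1 and 10, no filter, a mean of 50 or more, TMM and median-ratio factors, litter as a block, only the 2 groups compared, litter m1 alone, each library left out, and unadjusted p. The fit was tested on simulated data with known changes in Fezf2-/- against Fezf2+/+, in genes of higher level and without litter or sex effects. It called 50.7% of the changes of 0.5 on the log2 scale and 91% of those of 1. A gene without a call may therefore still differ by 0.5. Lengths and positions came from GENCODE M21, and exact tests used SciPy 1.17.1.

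The genes and lists were chosen with earlier results of these data known. Genes given library by library were those called in a comparison, those whose mean was 50 or more and whose Fezf2-/- libraries lay apart from Fezf2+/+, the highest per kb of each family in Fezf2+/+, and called partners. Values of 1 of the 39 genes are not reported here. Cntnap5b, Slitrk2, Slitrk3, Lrfn2, Lrfn3 and Lrfn4 were added after their values were seen. Marker lists covered cortical glutamatergic, GABAergic, striatal and thalamic neurons, radial glia and astrocytes, oligodendrocyte precursors, meningeal fibroblasts, endothelial cells, microglia, red blood cells and choroid plexus.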

Additional observations from a re-analysis of the deposited data

Results flagged for a closer look

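Among the 4 Fezf2-/- libraries, 4 of the 39 adhesion genes had 1 library that stood apart from the other 3 by more than Dixon's 95% critical value of 0.829 for the gap over the range, which chance gives in about 1 of 20 groups. Cntn3 was lowest in bc205 at 612.37 normalized counts (gap over range 0.851). Cntn4 was highest in bc207 at 619.63 (0.859). Nlgn1 was lowest in bc204 at 2236.62 (0.897). Nlgn3 was highest in bc207 at 4294.19 (0.886). None of these 4 genes was called in a comparison.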

How the results depend on the processing

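In Fezf2-/- against Fezf2+/+, 1 adhesion gene was called in the fit of all 9 libraries. The number was 2 with only the 2 groups compared, 4 with DESeq2 on recovered reads of 7 libraries (Lrrtm4, Cntnap3, Nrxn3 and Flrt2), 13 at an unadjusted p, and 0 to 2 with single libraries left out. In Fezf2-EnR against Fezf2-/- it was 1, with 2 under the litter block, 13 at an unadjusted p, and 0 to 7 with single libraries left out. In Fezf2-EnR against Fezf2+/+ it was 0, with 11 at an unadjusted p and 0 to 1 with single libraries left out. The cause of these changes was not tested. Over all genes the first comparison called 139, against 221 with only the 2 groups, 233 in litter m1 alone, 318 with DESeq2 and 66 to 217 with libraries left out. The second called 124, against 67 with only the 2 groups and 21 to 1088 with libraries left out. The third called 19, against 10 with a mean of at least 50, 12 with only the 2 groups, 32 with the litter block and 8 to 491 with libraries left out. For edgeR on the reads of all 9 libraries, chosen after seeing the data, the values of bc204 and bc208 were also divided by what 1 read is worth there, 1.0043 and 0.9956, and rounded, although that worth lies close to 1. edgeR then called Lrrtm4 in the first comparison, Flrt2 in the second and none in the third, and on 7 libraries it called Cntnap3 but not Lrrtm4 (adjusted p = 0.0677). Over the 39 genes and the 6 called partners, run in every alternative after seeing the data for those not named by rule, no difference called in any of these fits changed sign. The limits are that 2 Fezf2-EnR mice of different litters give little hold on their spread, that no litter held all genotypes, and that sex follows the transgene against Fezf2-/-. Sex was also unbalanced in the comparisons with Fezf2+/+. Slitrk6 and Cntnap1, at 8.74 to 23.3 normalized counts, are limited by depth.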

Other observations

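The other cell type marker lists gave these sums of normalized counts. For 8 radial glia and astrocyte genes they were 15896 to 17232 in Fezf2+/+ and 17224 to 20258 in Fezf2-/-, which overlapped. Every gene of this list and of the 6 oligodendrocyte precursor genes had a log2 difference above 0 and none was called. The thalamic gene Gbx2 was at 0 to 9 normalized counts. Sums overlapped between these genotypes for meningeal fibroblasts (1016 to 1561 and 1141 to 1691), endothelial cells (2419 to 2956 and 2650 to 3300), microglia (828 to 949 and 858 to 1021) and red blood cells (4659 to 6888 and 4229 to 7331). Red blood cell genes summed to 3399 and 3712 in Fezf2-EnR. The 4 choroid plexus genes summed to 3 to 20 over all libraries. The 8 cortical glutamatergic genes summed to 53095 to 54627 in Fezf2+/+ and 48272 to 60741 in Fezf2-/-, with 1 of them called higher and 1 lower.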
